A study of Drosophila melanogaster with 48 samples.

Results

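The mitochondrial genome of Drosophila melanogaster is a small circular DNA that lies apart from the nuclear chromosomes, and its transcripts were described here across the gut and the fat body. The members were every gene whose FlyBase symbol begins with mt:, and 36 such genes were found among the 16185 genes of the tables. They comprised 13 mRNA genes, 2 ribosomal RNA genes and 21 transfer RNA genes. A further tRNA gene and the control region of the genome were not analysed here. The 13 mRNAs encode core subunits of the respiratory chain and of ATP synthase, the rRNAs (mt:lrRNA and mt:srRNA) form the mitochondrial ribosome, and the tRNAs serve mitochondrial translation. Both strands of the genome are transcribed into long precursors, which are cut at the tRNAs that lie between the other genes. Mitochondrial mRNAs and rRNAs carry short poly(A) tails and can therefore be recovered in poly(A)-selected libraries, whereas mature tRNAs do not carry one.

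RNA was taken from mated females of 3 genotypes in an outbred, Wolbachia-free Dahomey background with the w1118 mutation. S106>Xbp1s females carried a transgene for spliced Xbp1, a transcription factor of the unfolded protein response, and S106>Xbp1U females carried a transgene for a form that cannot be spliced. S106>Wdah females carried the S106 driver alone. S106 is a GeneSwitch driver active in the gut and fat body when the flies are fed RU486, so driver and background were shared by all 12 groups. Each genotype received food with RU486 (200 uM, RU+) or with the ethanol vehicle (RU-) for 7 days and was dissected at day 9. A library held 12 pooled guts, or 12 pooled fat bodies with the abdominal cuticle, and the gut and fat body samples of a group may share flies. The labels list 48 libraries. In the gut there were 4 RU+ and 5 RU- libraries of S106>Wdah, 3 and 3 of S106>Xbp1s, and 4 and 4 of S106>Xbp1U. In the fat body there were 5 and 5, 4 and 4, and 4 and 3, respectively.

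Each genotype and tissue had 1 table, 6 in all, with the mean normalised count of a gene over its RU+ and RU- libraries, the log2 ratio of RU+ to RU- as a fold change, and the standard error (SE) of that change. No value of a single library was given, so levels carry no replicate error and the spread between libraries is known only through the SE. The means summed to between 22483518 and 25130044 per table. Digestive enzyme and other gut markers took 5.43% to 6.92% of this sum in the gut tables and 0.0191% to 0.0722% in the fat body tables, while fat body markers took 0.0917% to 0.207% and 6.44% to 10.7%, so each tissue carried its own markers. Muscle markers took 0.220% to 0.253% in the gut and 0.246% to 0.405% in the fat body samples. In RNA from whole tissue, fewer cells of a type and less RNA per cell cannot be told apart.

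Mitochondrial transcripts were among the most abundant RNAs of both tissues. In the gut they took 14.97% of the summed mean count in S106>Wdah, 11.0% in S106>Xbp1U and 8.04% in S106>Xbp1s. In the fat body the shares were 21.8%, 10.1% and 7.11%. The mean over the 3 genotypes was 11.3% ± 3.47 (SD) for gut and 12.996% ± 7.75 for fat body, and the tissues did not differ beyond this spread (exact permutation test over 3 and 3 tables, two-sided, p = 0.9). The smallest p this unpaired test allows is 0.1. It took the tables as independent, although each genotype gave a gut and a fat body table. The SDs therefore include the differences between genotypes. The 70 nuclear genes of oxidative phosphorylation took 1.23% to 1.48% in the 6 tables. They encode other subunits of the same complexes and subunits of complex II, to which no member belongs.

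**Figure D1:**
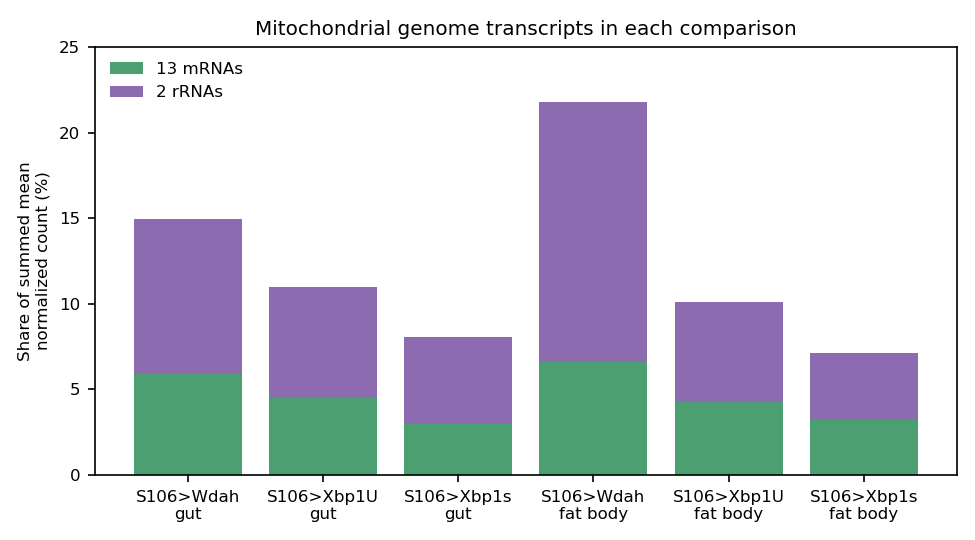
Share of the summed mean normalised count (y axis, percent) taken by the 13 mRNAs (green) and the 2 rRNAs (purple) of the mitochondrial genome in each genotype and tissue (x axis). The whole bar runs from 7.11% in the S106>Xbp1s fat body to 21.8% in the S106>Wdah fat body, and the tRNAs are too few to be drawn.

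The RNA classes held very unequal parts of these shares. The rRNAs took 9.04%, 6.53% and 5.06% of the summed count in the guts of S106>Wdah, S106>Xbp1U and S106>Xbp1s, and 15.2%, 5.86% and 3.91% in the fat bodies. The mRNAs took 5.93%, 4.47% and 2.98% in the guts and 6.59%, 4.24% and 3.20% in the fat bodies. The mRNAs thus amounted to between 0.434 and 0.818 of the rRNA counts, both extremes being fat body tables. All 21 tRNAs together took no more than 0.00183%, reached in the S106>Wdah fat body, where their means summed to 446. In the other tables the tRNA means summed to between 101 and 218.

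The order of the genotypes was shared by the individual members. Each of the 15 mRNA and rRNA genes took its highest share in S106>Wdah, an intermediate share in S106>Xbp1U and its lowest share in S106>Xbp1s, and this held in either tissue. The ratio of S106>Wdah to S106>Xbp1s had a median of 2.09 in the gut, from 1.62 for mt:ND1 to 3.72 for mt:ND6. In the fat body the median was 2.87, from 1.57 for mt:CoIII to 6.46 for mt:ND6. These ratios compare levels between tables, they were not tested, and the libraries of each genotype were normalised apart from the others. Genotype and any processing shared by the libraries of that genotype cannot be told apart. The share of the fat body markers ran in the opposite order, with 6.44% in S106>Wdah, 9.44% in S106>Xbp1U and 10.7% in S106>Xbp1s, and so did that of the gut markers in the gut (5.43%, 6.46% and 6.92%). The gut marker list held 10 genes in the S106>Wdah gut but 9 in the other guts, where LManVI had no value. The part of the abundant marker genes in the order of the genotypes was not tested.

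Levels of different members were compared after division by length, as the mean normalised count per kb in each 1000000 of the table's summed count per kb. This is called the length-adjusted level below. The large rRNA, mt:lrRNA (mitochondrion_genome, positions 12735 to 14058, minus strand, BDGP6.54), stood far above the rest. Its length-adjusted level was 86393, 62983 and 50768 in the guts of S106>Wdah, S106>Xbp1U and S106>Xbp1s, and 157250, 65442 and 46003 in the fat bodies. By mean count it was the most abundant gene of every table except that of the S106>Xbp1s fat body, where it was in place 2. It made up 54.9% to 69.6% of all mitochondrial counts.

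The small rRNA, mt:srRNA (positions 14131 to 14916, minus strand), lies next to it on the same strand with only a tRNA between them. Its length-adjusted level was 354, 212 and 136 in the guts, in the same order of genotypes, and 412, 169 and 118 in the fat bodies. The large rRNA was 244 to 374 times the small rRNA per kb in the gut and 382 to 390 times in the fat body. The libraries were poly(A)-selected, so these are levels of the RNA recovered by that selection. The part of the selection in this gap was not tested. The 3 fat body ratios all exceeded the 3 gut ratios. This gives the smallest p that 3 against 3 unpaired tables allow (exact permutation test, two-sided, p = 0.1). After Benjamini-Hochberg adjustment over the 15 measures compared between the tissues the permutation p was 0.188.

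In the gut tables the 3 mRNAs of complex IV, the cytochrome c oxidase that passes electrons to oxygen, had the highest length-adjusted levels of the mRNAs. mt:CoIII (positions 4736 to 5524, plus strand) had length-adjusted levels of 18040, 13978 and 10983 in the guts and 16540, 13814 and 11964 in the fat bodies. mt:CoI (positions 1474 to 3009, plus strand), the catalytic subunit, had 16303, 12946 and 9226 in the guts and 15590, 12501 and 10769 in the fat bodies. By mean count mt:CoI was in place 3 to 10 among all genes of a table. mt:CoII (positions 3083 to 3767, plus strand), which receives electrons from cytochrome c, had 13584, 9265 and 5680 in the guts and 15161, 9553 and 6696 in the fat bodies. mt:CoI and mt:CoII are separated by a tRNA, and the ratio of the former to the latter was 1.03 to 1.62.

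Cytochrome b of complex III, mt:Cyt-b (positions 10499 to 11635, plus strand), was above mt:CoII in the fat body of all 3 genotypes and above mt:CoI in that of S106>Wdah. Its length-adjusted level was 11292, 8565 and 5480 in the guts and 16529, 10838 and 8136 in the fat bodies. In complex V, the ATP synthase, mt:ATPase6 (positions 4062 to 4736, plus strand) had 7371, 4619 and 2414 in the guts and 8765, 5078 and 3425 in the fat bodies. mt:ATPase8, a short subunit of 162 bp that shares 7 bp with mt:ATPase6, was lower, at 397, 244 and 122 in the guts and 833, 231 and 168 in the fat bodies. Per kb mt:ATPase6 was 10.5 to 22.0 times mt:ATPase8. How reads over both genes were counted is not given in the sources used here, and its part in this ratio was not tested.

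The 7 mRNAs of complex I, the NADH dehydrogenase, formed a more abundant and a scarcer set. mt:ND1, mt:ND3, mt:ND4 and mt:ND5 had length-adjusted levels between 926 (mt:ND5 in the S106>Xbp1s gut) and 5604 (mt:ND1 in the S106>Wdah fat body). mt:ND2, mt:ND4L and mt:ND6 lay between 41.4 and 480. The lowest of all mRNAs in every table was mt:ND2 (positions 240 to 1263, plus strand), with 106.1, 60.2 and 41.4 in the guts and 225, 143 and 55.8 in the fat bodies. mt:ND6 had 176, 103 and 49.6 in the guts and 480, 265 and 84.4 in the fat bodies. No test was made of the differences between members, since a table holds 1 mean per gene.

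**Figure D2:**
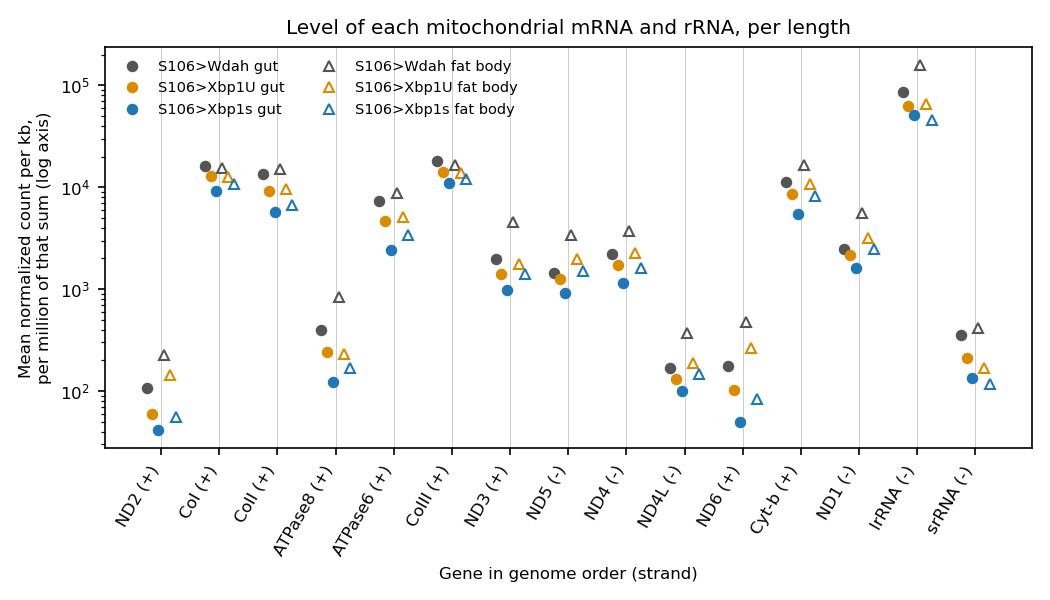
Length-adjusted level (y axis, log scale: mean normalised count per kb in each 1000000 of that sum) of the 13 mRNAs and 2 rRNAs, placed in genome order with their strand (x axis), in the 3 genotypes (colours) and in gut (filled circles) and fat body (open triangles). mt:lrRNA stands above every other member in all 6 tables, from 46003 to 157250, and mt:ND2 is the lowest mRNA, from 41.4 to 225.

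The order of the 15 members by length-adjusted level was nearly the same in every table, with a Spearman's rho of 0.961 to 0.996 over the 15 pairs of tables. The pairs share the gene lengths, and the pairs within a genotype may share flies, so the coefficients are given as a description. Genes that follow each other on a strand differed widely. mt:CoI was 69.3 to 223 times mt:ND2, mt:Cyt-b was 34.4 to 110 times mt:ND6, and mt:CoIII was 3.66 to 11.1 times mt:ND3. mt:ND4 (positions 8207 to 9545, minus strand) was 9.92 to 13.2 times its neighbour mt:ND4L, with which it shares 1 bp. How reads over 2 genes were counted, and whether strand was used, is not given in the sources used here, and its part in these ratios was not tested. Nuclear copies of mitochondrial sequence were not examined.

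The mitochondrial mRNA pool was next divided by complex. Complex I mRNAs made up 11.6%, 12.5% and 12.8% of mitochondrial mRNA counts in the guts of S106>Wdah, S106>Xbp1U and S106>Xbp1s, and 20.1%, 16.5% and 15.5% in the fat bodies. Complex IV mRNAs made up 64.6%, 65.0% and 67.3% in the guts and 52.4%, 58.3% and 61.3% in the fat bodies. No fat body value of either complex lay within the range of the gut, but 3 against 3 tables cannot pass a threshold of 0.05. The ratio of complex I to complex IV counts was 0.187 ± 0.00706 (SD, n = 3 tables) for gut and 0.307 ± 0.0689 for fat body (exact permutation test, two-sided, p = 0.1, adjusted 0.188 over the 15 measures). The ratio per kb gave the same p, as did the ratio without the genes shorter than 400 bp.

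mt:Cyt-b, the only mitochondrially encoded subunit of complex III, also took a larger part of the pool in the fat body, with 18.5% to 20.8% against 15.7% to 17.1% in the gut (exact permutation p = 0.1, adjusted 0.188). Complex V did not separate the tissues, at 4.15% to 6.71% in the gut and 4.69% to 6.69% in the fat body (exact permutation p = 0.9). The nuclear subunits were measured in the same tables. Nuclear complex I counts were 1.16 to 1.23 times nuclear complex IV counts in the gut and 1.30 to 1.41 times in the fat body (exact permutation p = 0.1), so the nuclear ratio was also higher in each fat body table. The muscle markers took a larger share in 2 of the 3 fat body tables than in any gut table. In the S106>Wdah fat body, which had the highest complex I to complex IV ratio (0.384), they took 0.246%, within the range of the gut. Eggshell and ovary markers took 0.535%, 0.339% and 0.290% in the fat bodies of S106>Wdah, S106>Xbp1U and S106>Xbp1s. In the guts they took 0.0465%, 0.00491% and 0.00125%. The part of muscle and ovary RNA in the complex ratios was not tested.

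Gene by gene, all 7 complex I mRNAs and mt:Cyt-b took a higher share of the summed count in the fat body than in the gut in 3 of 3 genotypes. The ratio of fat body to gut was 2.52, 2.23 and 1.45 for mt:ND6 in S106>Wdah, S106>Xbp1U and S106>Xbp1s. It was 2.18, 1.34 and 1.39 for mt:ND5, a proton-pumping subunit. mt:CoIII took a lower share in the fat body in every genotype, with ratios of 0.847, 0.854 and 0.930. mt:CoI was lower as well, at 0.883, 0.835 and 0.996, the last of which is close to no difference. mt:CoII ran from 0.891 to 1.03. The rRNAs did not keep a direction, since mt:lrRNA had a ratio of 1.68 in S106>Wdah and of 0.898 and 0.773 in S106>Xbp1U and S106>Xbp1s.

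**Figure D3:**
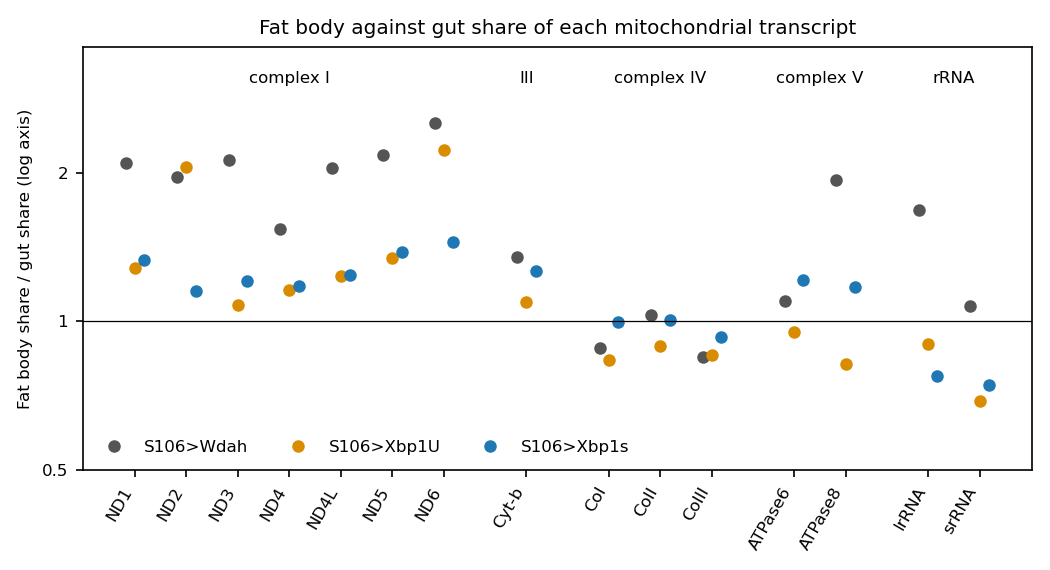
Ratio of the fat body share to the gut share of the summed mean count (y axis, log scale) for each mitochondrial mRNA and rRNA (x axis, grouped by complex) in the 3 genotypes (colours), with the line at 1 marking equal shares. The complex I genes and Cyt-b lie above 1 in all 3 genotypes, while CoIII lies between 0.847 and 0.930.

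Few tRNA reads were recovered. Of the 21 tRNA genes, 10 reached a mean of at least 10 in any table, 5 reached it in all 6, and 11 reached it in none, the highest of these being 8.42. The tRNA for tyrosine (mt:tRNA:Tyr-GTA) had means of 18.4, 21.6 and 15.8 in the guts of S106>Wdah, S106>Xbp1U and S106>Xbp1s and 70.6, 57.6 and 69.7 in the fat bodies. Its 3 fat body means were all higher than its gut means. The tRNA for alanine (mt:tRNA:Ala-TGC) had 36.9, 23.4 and 10.9 in the guts and 94.0, 49.6 and 21.8 in the fat bodies, with a wider spread between genotypes than between tissues. The tRNAs for glycine, asparagine and serine (mt:tRNA:Gly-TCC, mt:tRNA:Asn-GTT and mt:tRNA:Ser-GCT) were between 13.9 and 47.2 in all tables.

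The other named tRNAs passed 10 in some tables only. mt:tRNA:Gln-TTG reached 12.8 in S106>Wdah gut and 35.3 in S106>Wdah fat body, and was between 2.44 and 5.72 elsewhere. mt:tRNA:Met-CAT was 40.6 in the S106>Wdah fat body and 2.61 to 8.95 in the other tables. mt:tRNA:Ile-GAT (24.5) and mt:tRNA:Trp-TCA (15.3) likewise passed 10 in the S106>Wdah fat body alone. mt:tRNA:Leu-TAA ranged from 6.32 to 18.4. Neighbouring genes could differ, since mt:tRNA:Arg-TCG and mt:tRNA:Glu-TTC lie in the same run of tRNA genes as those for alanine, asparagine and serine and had means of at most 2.42 and 0.359.

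**Figure D4:**
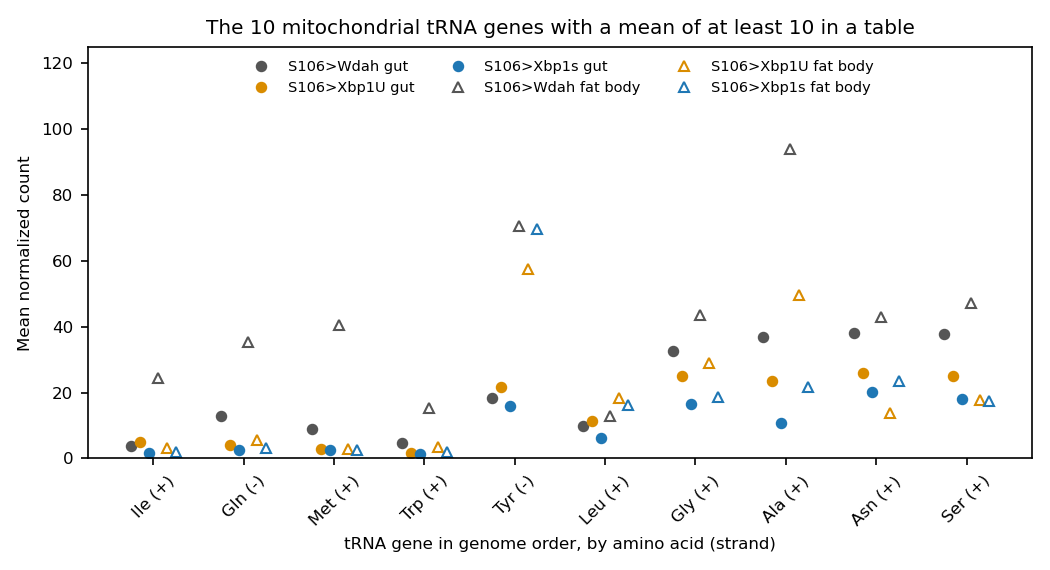
Mean normalised count (y axis) of the 10 mitochondrial tRNA genes whose mean reached 10 in a table, in genome order and named by amino acid with the strand (x axis), in the 3 genotypes (colours) and in gut (filled circles) and fat body (open triangles). The alanine tRNA of the S106>Wdah fat body is highest at 94.0, and the tyrosine tRNA is higher in the 3 fat body tables (57.6 to 70.6) than in the guts (15.8 to 21.6).

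RU486 feeding was next compared within each genotype and tissue. In the S106>Xbp1s fat body all 15 mitochondrial mRNAs and rRNAs had a log2 fold change below 0, with a median of -0.26, against a median of -0.0023 and 5000 of 9925 below 0 among all genes whose mean reached 10. At a false discovery rate of 10%, 9 of the 15 fell (DESeq2 Wald test, Benjamini-Hochberg adjusted), namely 8 mRNAs and mt:lrRNA, where 5.89% of all 6452 genes with an adjusted p-value fell. Of the 15, 11 had an unadjusted p below 0.05. The count of 9 depends on the setting. It was 4 at a false discovery rate of 5% and again 4 when the adjustment took in every p-value of the table. It was 3 after subtraction of the trend with gene length, and 2 after subtraction of the trend with mean count. The trends were subtracted from the mitochondrial genes only, and all other genes entered the adjustment as deposited. The 15 genes are read from the same libraries and are not replicates of the effect.

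The RU486 effect by complex in the S106>Xbp1s fat body was as follows. In complex IV, mt:CoII fell by 0.33 on the log2 scale (SE 0.076, adjusted p = 0.00114, DESeq2 Wald test), or 20.7%. It stayed called under the other adjustments, recentring and the trend subtractions, but its value shrank to -0.20 with the length trend and to -0.19 with the mean count trend subtracted. With the driver-alone effect subtracted it was -0.17 (95% interval -0.81 to 0.46) and was not called. mt:CoIII fell by 0.28 (SE 0.088, adjusted p = 0.0309) and mt:CoI by 0.25 (SE 0.089, adjusted p = 0.0652). In complex III, mt:Cyt-b fell by 0.25 (SE 0.099, adjusted p = 0.0926). In complex I, mt:ND4 fell by 0.37 (SE 0.12, adjusted p = 0.0387), mt:ND3 by 0.46 (SE 0.18, adjusted p = 0.0970) and mt:ND1 by 0.26 (SE 0.10, adjusted p = 0.0918). In complex V, mt:ATPase8 fell by 0.39 (SE 0.14, adjusted p = 0.0611).

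Of the rRNAs, mt:lrRNA fell by 0.49 on the log2 scale (SE 0.14, adjusted p = 0.0189, DESeq2), or 28.6%, while mt:srRNA had a log2 fold change of -0.026 (95% interval -0.36 to 0.31, adjusted p = 0.950). The interval of mt:srRNA reaches past -0.26, so a change of the median size was not detectable for it. The 5 mRNAs that did not pass were mt:ND5 (-0.22, adjusted p = 0.138), mt:ATPase6 (-0.22, adjusted p = 0.150), mt:ND6 (-0.45, adjusted p = 0.260), mt:ND2 (-0.25, adjusted p = 0.298) and mt:ND4L (-0.20, adjusted p = 0.382). mt:ND6 had the largest SE of the 15, at 0.25. Summed over each class and weighted by abundance, the fold changes correspond to mRNA counts 17.0% lower and rRNA counts 28.6% lower in RU+ than in RU-, without a test. The rRNA value is almost wholly that of mt:lrRNA, whose mean count was 657 times that of mt:srRNA.

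**Figure D5:**
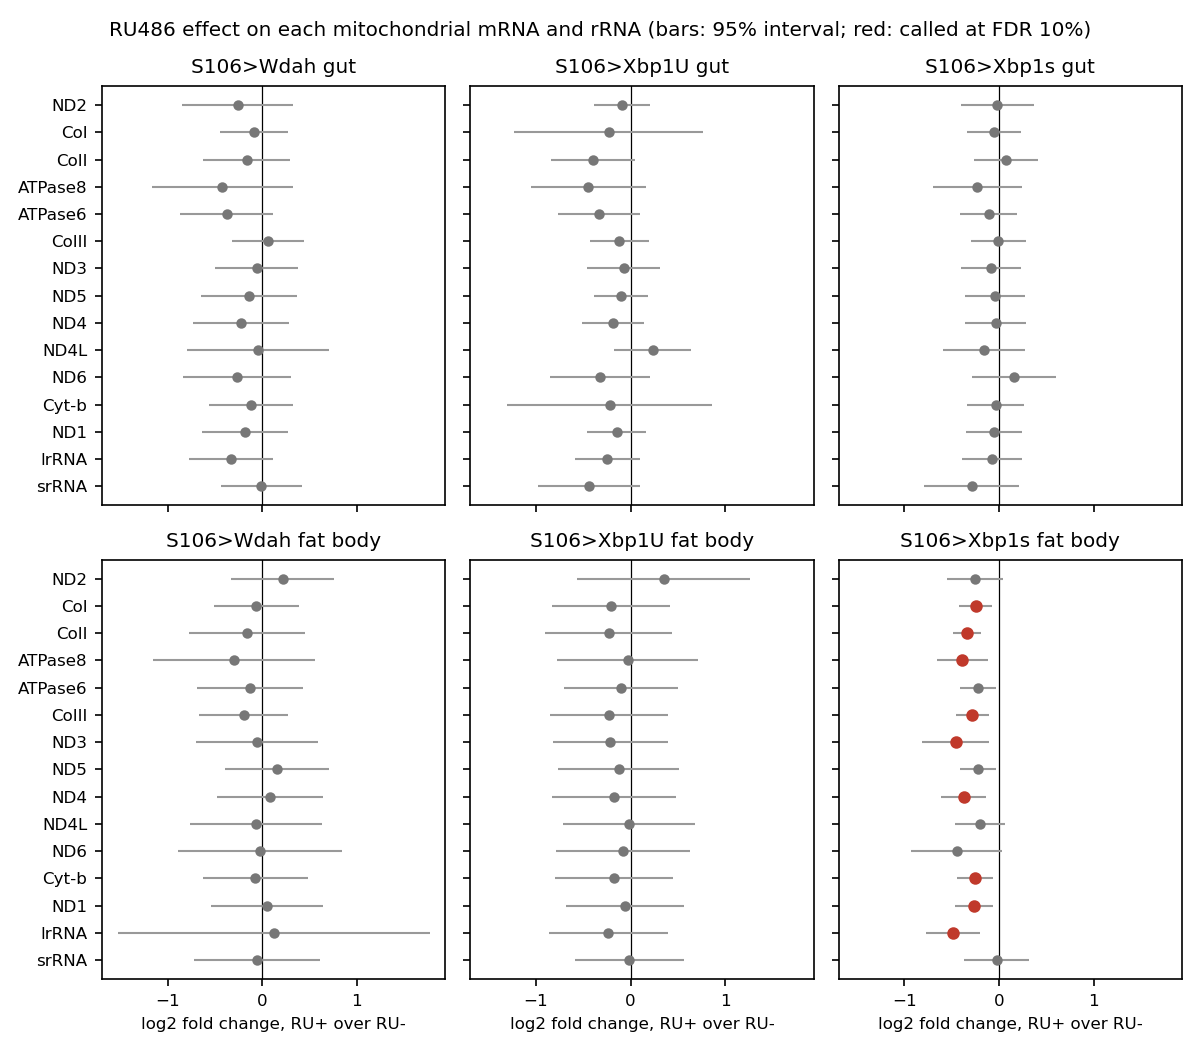
Log2 fold change of RU+ over RU- (x axis) of each mitochondrial mRNA and rRNA (y axis, genome order) in the 6 genotype and tissue comparisons, with the 95% interval as a bar and genes called at a false discovery rate of 10% in red. In the S106>Xbp1s fat body all 15 points lie below 0 and 9 are called, while in the other panels the intervals all cross 0.

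Other groups of genes moved in the same fat body libraries. Of the 68 nuclear oxidative phosphorylation genes with a mean of at least 10, 66 were below 0, with a median of -0.27. At a false discovery rate of 10%, 36 of the 67 with an adjusted p-value fell, where 5.89% of all genes fell. All 14 muscle markers with a mean of at least 10 were below 0, with a median of -0.39, and 9 of the 13 with an adjusted p-value fell. All 10 fat body markers were below 0, with a median of -0.21, and 2 of the 8 with an adjusted p-value fell. Of the 10 gut markers 8 were above 0, with a median of 1.35. Of the 7 gut markers with an adjusted p-value 3 rose, where 6.08% of all genes rose. Together the gut markers took only 0.0695% of the summed count. Of the 13 eggshell and ovary markers 7 were above 0 and 6 below, with a median of 0.41, and 5 of the 12 with an adjusted p-value rose. They took 0.290% of the summed count. Length and abundance moved with the effect too. Nuclear genes under 1000 bp had a median log2 fold change of -0.13, those over 2000 bp one of 0.065, and those with a mean of at least 10000 one of -0.14. The part of the muscle, gut and ovary markers, of length and of abundance in the mitochondrial falls was not tested beyond the subtractions given above.

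The nuclear genes that maintain and express the mitochondrial genome were at other values. The list holds 22 genes, among them the mitochondrial RNA polymerase, transcription and termination factors, RNA-stability and processing factors and the replication enzymes. Of these, 19 were present in the tables, all with a mean of at least 10, and the rest had no value there. In the S106>Xbp1s fat body 15 of the 19 were above 0 and 4 below, with a median of 0.12. Only scu, which encodes a subunit of the mitochondrial RNase P that cuts precursors at tRNAs, was called, and it fell by 0.20 (SE 0.073, adjusted p = 0.0646, DESeq2). This is 1 of the 16 with an adjusted p-value, near the 5.89% of all genes that fell. TFAM, which packages the mitochondrial genome, had a log2 fold change of 0.12 (SE 0.15) and bsf, an RNA-binding protein that stabilises mitochondrial mRNAs, one of 0.23 (SE 0.16). None of the list was called in the other 5 tables, where its median lay between 0.019 and 0.072.

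In the other 5 tables no mitochondrial transcript was called (DESeq2 with Benjamini-Hochberg adjustment), and none of the 15 mRNAs and rRNAs had an unadjusted p below 0.05 there. Few genes of any kind were called in these tables, namely 0.262% in the S106>Wdah gut, 1.38% in the S106>Xbp1s gut, 0.092% in the S106>Xbp1U gut, 0.0068% in the S106>Wdah fat body and 0.0968% in the S106>Xbp1U fat body. The median log2 fold change of the 15 genes was nevertheless below 0 in each. It was -0.16 in the S106>Wdah gut, -0.22 in the S106>Xbp1U gut and -0.052 in the S106>Xbp1s gut, with 14, 14 and 13 of 15 genes below 0. In the fat body it was -0.057 in S106>Wdah and -0.12 in S106>Xbp1U, with 10 and 14 of 15 below 0. The median of all genes in the S106>Xbp1U fat body was itself -0.074.

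The nuclear oxidative phosphorylation genes did not take the same sign in every table. In the S106>Wdah gut 55 of 70 were above 0, with a median of 0.11, and in the S106>Xbp1s gut 53 of 69 were above 0, with a median of 0.029. They were below 0 at the median in the S106>Xbp1U gut (-0.086), the S106>Wdah fat body (-0.081) and the S106>Xbp1U fat body (-0.20). None of them was called in these 5 tables.

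mt:CoII and mt:lrRNA, which fell in the S106>Xbp1s fat body, had larger SEs in each of the other 5 tables. mt:CoII had log2 fold changes of -0.16 (SE 0.23), -0.40 (SE 0.23) and 0.076 (SE 0.17) in the guts of S106>Wdah, S106>Xbp1U and S106>Xbp1s, and of -0.16 (SE 0.31) and -0.23 (SE 0.34) in the fat bodies of S106>Wdah and S106>Xbp1U. mt:lrRNA had -0.33 (SE 0.22), -0.24 (SE 0.17) and -0.074 (SE 0.16) in the guts, and 0.12 (SE 0.84) and -0.23 (SE 0.32) in the same fat bodies. The 95% intervals of these values all include 0. In the S106>Xbp1s gut they leave out the value of the same gene in the S106>Xbp1s fat body, and in the other 4 tables they include it. The SE of a mitochondrial mRNA or rRNA was 0.076 to 0.25 in the S106>Xbp1s fat body, against 0.23 to 0.84 in the S106>Wdah and 0.30 to 0.47 in the S106>Xbp1U fat body.

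Some SEs stood apart. With the library numbers of the labels, the SE of mt:lrRNA in the S106>Wdah fat body corresponds to an SD between libraries of 1.33 on the log2 scale, where the median of the 15 genes was 0.477. In the S106>Xbp1U gut the SE of mt:CoI was 0.51 and that of mt:Cyt-b 0.55, against a median of 0.21. Which libraries carry this spread cannot be read from the tables. The highest mitochondrial share, that of the S106>Wdah fat body, therefore includes the member with the widest spread.

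The difference of the RU486 effect between comparisons was tested directly for each member, as the difference of the log2 fold changes over its combined SE. None of the members tested passed a false discovery rate of 10% in any of 9 such differences. In the S106>Xbp1s fat body minus the S106>Wdah fat body, 14 of 15 mRNAs and rRNAs were below 0, with a median of -0.19 and a median SE of 0.32, and none had an unadjusted p below 0.05. Against the S106>Xbp1U fat body all 15 were below 0, with a median of -0.18 and a median SE of 0.35, again with none below 0.05. Of all genes tested, 0.0211% and 0.0941% passed in these differences. In the remaining differences 0.0446% (S106>Xbp1s minus S106>Wdah), 0% (S106>Xbp1U minus S106>Wdah) and 0.29% (S106>Xbp1s minus S106>Xbp1U) passed in the gut, 0.0736% in the fat body of S106>Xbp1U minus that of S106>Wdah, and 0.0222% and 0.0573% in fat body minus gut of S106>Wdah and S106>Xbp1U. The fall in the S106>Xbp1s fat body was thus not shown to differ from the effect of RU486 in the driver-alone fat body.

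Between the tissues of S106>Xbp1s, 14 of 15 genes had a lower log2 fold change in the fat body than in the gut, with a median difference of -0.22. The smallest p was that of mt:CoII, whose difference was -0.41 (SE 0.19, 95% interval -0.78 to -0.040, unadjusted p = 0.0297 and adjusted p = 0.809, z test with Benjamini-Hochberg adjustment). In this difference 0.334% of all genes passed. For mt:lrRNA the difference was -0.41 (SE 0.22, 95% interval -0.84 to 0.014). The 2 tissues may come from the same flies, which the z test does not take into account.

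The tRNAs gave no call in any comparison, and the count of tRNAs with an adjusted p-value was 0 in both S106>Xbp1s tables. The only tRNA with an unadjusted p below 0.05 was mt:tRNA:Met-CAT in the S106>Wdah gut, with a log2 fold change of 2.63 (SE 1.29). Its mean count there was 8.95. For mt:tRNA:Tyr-GTA in the S106>Xbp1s fat body the log2 fold change was 0.72 (SE 0.42). The SE of a tRNA was 0.39 or more in every table, so changes of the size seen in the mRNAs were not detectable at this depth.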

How the data were processed

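Poly(A)-selected, paired-end RNA sequencing (150 bp) was done on gut and fat body. The authors used HISAT2 to align reads to dm6 and featureCounts to count them over exons, dropped 4 samples as outliers of clustering, and fitted DESeq2 within each genotype and tissue. As deposited, the signal value of a gene is its normalised count averaged over all libraries of the table, so the depth is known only from the sum of these. The authors also give log2 fold changes with standard errors, a Wald score, and the deposited p-values in 3 forms (unadjusted, Benjamini-Hochberg adjusted, weighted). The genes called in a tissue of the driver alone had been taken out of its other tables.

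These authors' tests were used as deposited, with calls at a false discovery rate of 10%, since a refit needs values of single libraries. Members and lists were chosen with earlier results of these data known. All 13 mRNAs and 2 rRNAs were named, with the tRNAs whose mean reached 10 and, of the nuclear mitochondrial expression genes, those called and the 3 with the highest summed mean. Changes summed over a class assume the library numbers of the labels. Symbols, lengths and positions came from BDGP6.54 (Ensembl release 115). Shares, length-adjusted levels, exact permutation tests over tables (two-sided) and z tests of differences (mean of 10 or more in both tables, 95% intervals) were computed in Python 3.11.15 with numpy 2.4.6, scipy 1.17.1 and pandas 2.3.3, and matplotlib 3.10.9 drew the figures. The z tests of differences, with their Benjamini-Hochberg adjustment, were tried on simulated fold changes, and the other calculations were not. Alternatives were a false discovery rate of 5%, adjustment over every p-value, recentring, a minimum mean of 100 or none, the driver-alone effect subtracted, and other denominators of the share. Weighted p-values, subtraction of the length or mean-count trend (median of the 200 nearest nuclear genes), and the complex ratio per kb or without short genes were chosen after seeing the data. A trend was subtracted from the mitochondrial genes only, with the nuclear genes left as deposited.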

Additional observations from a re-analysis of the deposited data

How the results depend on the processing

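No paired analysis was possible because no table gives values library by library, and leaving out each replicate could not be run for the same reason. In the S106>Xbp1s fat body the count of 9 mitochondrial genes that fell became 4 at a false discovery rate of 5%, 4 when every p-value of the table entered the adjustment, 3 with the length trend subtracted and 2 with the mean count trend subtracted. It was 8 with weighted p-values and 9 after recentring. All 15 mRNAs and rRNAs stayed below 0 under these settings, except that mt:srRNA was at 0.074 with the length trend subtracted. mt:CoII was called under each of these settings, with adjusted p from 0.000626 to 0.0928. The median of the 15 genes in the S106>Xbp1s gut was 0.13 after subtraction of the driver-alone effect. A set of 48 nuclear genes was among the 20 highest of any table. Without this set the mitochondrial share was 18.9% in the S106>Wdah gut and 14.5% in the S106>Xbp1U gut. Without the rRNA genes it was 6.52% in the S106>Wdah gut, 3.14% in the S106>Xbp1s gut, 4.79% in the S106>Xbp1U gut, 7.77% in the S106>Wdah fat body, 3.33% in the S106>Xbp1s fat body and 4.51% in the S106>Xbp1U fat body. The cause was not tested. For the main results 110 values under other settings stayed within their limits (for a share, 1 SD over the tissue's 3 tables) and 11 did not. The 110 include counts of called genes that were 0 in both settings. For fat body shares the SD was 7.75, above the S106>Xbp1s share of 7.11%, so a fall of that share could not pass its limit. The tally is therefore not a measure of how stable the results are. Of values for single genes 24 lost a call in the S106>Xbp1s fat body. Levels of single libraries, and so the spread behind the shares, are out of reach of these tables.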
